A study of Mus musculus with 18 samples.

Results

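The genes of protein processing in the endoplasmic reticulum (ER) were followed across RNA sequencing libraries of mouse embryonic fibroblasts (MEF). They were taken as the rows that the KEGG column of the deposited table places in this pathway, leaving out Bax, Bcl2 and Eif2ak2, which left 160 of 55450 genes. The MEF, a line bought from a cell bank, were transfected with Col1a1-miR-29b, with empty pcDNA3 vector or with CMV-miR-29b. From 6 h after transfection they received TGF-β for a further 24 h or no treatment, and each of the 6 groups had 3 libraries, named by the replicate letters c, d and e. The third library of each Col1a1-miR-29b group carries in the table a letter that no sample title has, and it is called unlettered here, since only its group is known. Col1a1-miR-29b holds a rat Col1a1 promoter, active in cells that make collagen, in front of EGFP and a human miR-29b-1 sequence, and CMV-miR-29b holds the constitutive CMV promoter in its place. Both also carry mRFP1 under the SV40 promoter, which the methods do not describe for the empty vector, and equal molar amounts were used, so that the mass of the larger Col1a1-miR-29b plasmid was higher. Effects of miR-29b, of the fluorescent proteins and of plasmid size therefore cannot be told apart, and transfected cells were not sorted from others. Whether same-group libraries came from separate cultures is given only as repeated experiments, so p-values measure the spread between these libraries.

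The ER is the site where secreted and membrane proteins are made. New chains enter through the Sec61 translocon, receive glycans from the oligosaccharyltransferase, and fold with the help of lumenal chaperones, lectins and disulfide isomerases. Folded cargo leaves in vesicles coated with COPII, and misfolded chains are drawn back to the cytosol and degraded by the proteasome, a route called ER-associated degradation (ERAD). The unfolded protein response adjusts this capacity through 3 membrane sensors, PERK (gene Eif2ak3), IRE1 (Ern1, which splices Xbp1 mRNA) and ATF6. Fibroblasts that secrete collagen depend heavily on this machinery.

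Total counts per library ran from 65898017 to 80332633, with a median of 74155860, and log counts of same-group libraries correlated at 0.973 to 0.977. Fibroblast markers were abundant, with the sum of 11 markers at 3255 to 7732 CPM (counts scaled to library size). This sum includes the matrix genes Col1a1 (745 to 2497 CPM), Col1a2 (442 to 1821 CPM) and Fn1 (1344 to 2083 CPM). Lum, however, was at 0 in every library and Thy1 reached only 0.114 CPM. Sums of epithelial (7 genes, 0.471 to 3.27 CPM) and endothelial markers (6 genes, 1.37 to 3.83 CPM) were low, and most of the immune sum (7 genes, 9.47 to 14.3 CPM) came from Cd68, with Cd3e at no more than 0.0281 CPM. Mir29b-1 had 0 counts in every empty vector library, 0 to 1 with Col1a1-miR-29b, 2 to 6 with Col1a1-miR-29b and TGF-β, 110 to 309 with CMV-miR-29b and 203 to 293 with CMV-miR-29b and TGF-β. Poly(A) libraries hold precursor and not mature miRNA, so these counts check the plasmid labels only. Even so, they do not tell untreated Col1a1-miR-29b libraries from empty vector libraries.

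The mature strand that both vectors encode, miR-29b-3p, is shown because its seed (bases 2 to 8, in capitals) sets which transcripts it can pair with. It lies at chr6:31063025-31063047 on the minus strand (RefSeq, GRCm38.p6).
miR-29b-3p: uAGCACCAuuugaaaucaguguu
Among 159 members with an annotated 3′ UTR, 3 held the 8-base match to the seed and the base before it, shown here in capitals within the 3′ UTR of each mRNA.
Bak1 (chromosome 17): caacattgcaTGGTGCTActgaacccca
Erp29 (chromosome 5): ccgcaggagtTGGTGCTAtagaggtagg
Man1a2 (chromosome 3): ttctggatctTGGTGCTAcagaaaacag
The 8-base match was thus held by 1.99% of the tested members and by 3.36% of all tested genes with a 3′ UTR, and the 7-base match by 11.9% and 15.7%.

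Of the 160 members, 151 had enough counts to be tested, among 21161 tested genes. The other 9 had too few. All members together took 3.79% to 4.07% of the counts of a library. This share was 3.99% ± 0.0278 (SD, n = 3) in empty vector cells and 4.02% ± 0.0488 after TGF-β. It was 3.84% ± 0.0643 and 3.93% ± 0.0375 in the same order for Col1a1-miR-29b, and 3.93% ± 0.0498 and 4.03% ± 0.0351 for CMV-miR-29b.

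Levels between genes were compared as FPKM, the authors' value scaled for transcript length, over the 16 libraries whose FPKM columns match a sample. The median member had 19.4 FPKM, 20 members were above 100 and 15 were below 1. Hsp90ab1, a cytosolic chaperone, was highest at 986 FPKM, followed by P4hb, a disulfide isomerase that is also a subunit of collagen prolyl 4-hydroxylase, at 836. Calr, a lectin chaperone of the lumen, had 710 FPKM, the cytosolic chaperone Hsp90aa1 465 and Hspa5, the lumenal chaperone BiP, 453. By role, the disulfide isomerase family and oxidases had the highest median level, 104 FPKM over 9 genes, and the 22 cytosolic chaperones the lowest, 11.1 FPKM, although that role also held the highest single gene.

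**Figure D1:**
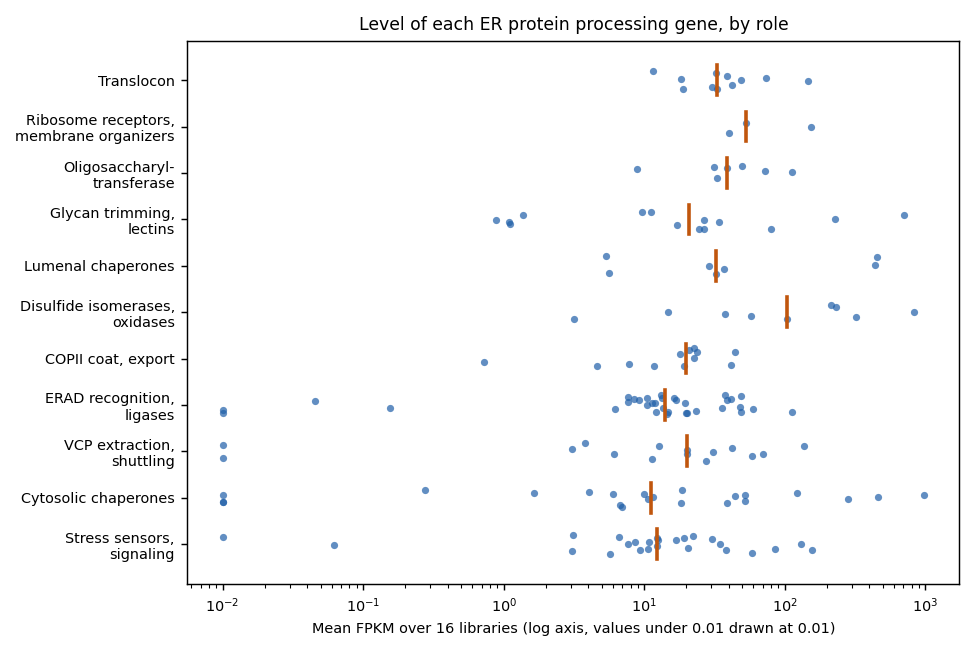
Mean FPKM over 16 libraries (log axis, values under 0.01 drawn at 0.01) of each member, by role. Points are genes and vertical bars are medians. The disulfide isomerases and oxidases have the highest median, 104 FPKM, and Hsp90ab1 among the cytosolic chaperones is the rightmost point at 986 FPKM.

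TGF-β raised some genes of ER entry and of ER exit in empty vector cells, and most members of each role did not pass the test. Median log2 fold changes were 0.14 for COPII, 0.11 for translocon, 0.10 for ERAD, 0.08 for lumenal chaperone and 0.01 for cytosolic chaperone genes. Differences between roles were not tested. With an adjusted p under 0.05 over all tested genes, 20 of 151 members passed (13.2%; background 5.88% of all genes). Of these, 18 rose (11.9%; background 3.88% of all genes higher) and 2 fell (1.32%; background 2.01% lower). Here and below, the backgrounds are over all tested genes and were not matched to the members' expression levels. Of the members, 143 had a mean above 10 CPM, and the part of expression level in these shares was not tested. The median log2 fold change was 0.07 for members and 0.00 for all genes. Among members past the threshold, the largest change was the rise of Sec31a, an outer COPII coat subunit, by 1.39-fold, and no member past the threshold changed 2-fold in any comparison of this study.

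Among members that passed, Sec31a and Sec24d of the COPII coat had the largest rises. Of 12 genes of this role, 3 rose and 9 did not pass the test. Sec31a had 164, 181 and 170 CPM without TGF-β and 237, 236 and 242 CPM with it in empty vector cells (log2 fold change 0.47 ± 0.04, SE, adjusted p = 1.62e-06). The 2 sets of libraries were far apart. Sec24d, the coat subunit that selects cargo and is needed for export of procollagen, had 125, 120 and 126 CPM without TGF-β and 166, 146 and 170 CPM with it (0.38 ± 0.05, adjusted p = 0.000339). Sec23a, its partner in the inner coat, rose from 108, 112 and 98.4 CPM to 134, 135 and 135 CPM (0.34 ± 0.05, adjusted p = 0.000472). For both genes every treated library lay above every untreated one. Sec13, the other subunit of the outer coat, did not pass the test, with 149, 139 and 148 CPM against 159, 164 and 153 CPM.

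At the entrance of the ER, 4 of 11 translocon genes rose. Sec61b, a small subunit of the channel, had 43.0, 42.5 and 38.0 CPM without TGF-β and 49.4, 49.3 and 49.5 CPM with it (0.26 ± 0.05, adjusted p = 0.00584). Sec61a1, the pore itself, rose from a mean of 354 to 414 CPM (0.23 ± 0.04, adjusted p = 0.000914), and Sec63, which recruits BiP to the channel, from 179 to 207 CPM (0.20 ± 0.05, adjusted p = 0.02). Tram1, a neighbour of the channel, and Stt3a, the catalytic subunit of the oligosaccharyltransferase bound to it, rose by 0.18 and 0.16 on the log2 scale. Rrbp1, a ribosome receptor of the rough ER, rose by 0.23 ± 0.06 (adjusted p = 0.0246).

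In the lumen, 3 of 9 disulfide isomerases and oxidases rose, P4hb by 0.13, Txndc5 by 0.15 and Pdia4 by 0.12 on the log2 scale. None of the 7 lumenal chaperones passed the test. Hspa5 had 2198, 2260 and 2087 CPM without TGF-β and 2444, 2183 and 2404 CPM with it, so the groups overlapped (0.10 ± 0.05, adjusted p = 0.3). Of the 14 genes of glycan trimming and lectins none passed, Calr among them at 2276, 2270 and 2284 CPM against 2097, 2352 and 2052 CPM.

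Among the stress sensors and their signaling, 3 of 24 tested genes rose and 1 fell. Xbp1, the transcription factor made by IRE1 splicing, had 122, 116 and 103 CPM without TGF-β and 156, 131 and 153 CPM with it (0.37 ± 0.07, adjusted p = 0.00356). Eif2ak3, the sensor PERK, had 46.2, 44.4 and 45.0 CPM against 54.8, 50.3 and 53.5 CPM (0.23 ± 0.05, adjusted p = 0.0129). Both genes lay higher in all treated libraries. Capn2, a calpain protease, rose by 0.26 ± 0.06, and Casp12, a caspase at the ER membrane, fell from 17.4, 16.7 and 16.5 CPM to 11.8, 12.2 and 12.6 CPM (-0.47 ± 0.09, adjusted p = 0.00516). The sensors Atf6 (115 against 112 CPM) and Ern1 (111 against 120 CPM) and the pro-apoptotic factor Ddit3, known as CHOP (243 against 263 CPM), did not pass the test. These counts are of whole genes and do not separate spliced from unspliced Xbp1.

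Of 32 tested ERAD recognition genes and ligases, Selenos, a membrane protein of the retrotranslocation complex, rose by 0.28 ± 0.07 and Fbxo2, a sugar-binding F-box protein, fell by 0.32 ± 0.09 on the log2 scale. Plaa and Ubqln2, which work with VCP and the proteasome, rose by 0.16 and 0.15. All 19 tested cytosolic chaperones stayed short of the threshold. Several of the 20 calls rested on single libraries. Left without empty vector replicate d, without empty vector replicate e, without empty vector TGF-β replicate c or without empty vector TGF-β replicate e, the count became 11, 8, 8 and 7. Sec31a, Sec24d, Sec23a, Sec61a1, Xbp1 and Casp12 passed under all 14 alternatives.

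**Figure D2:**
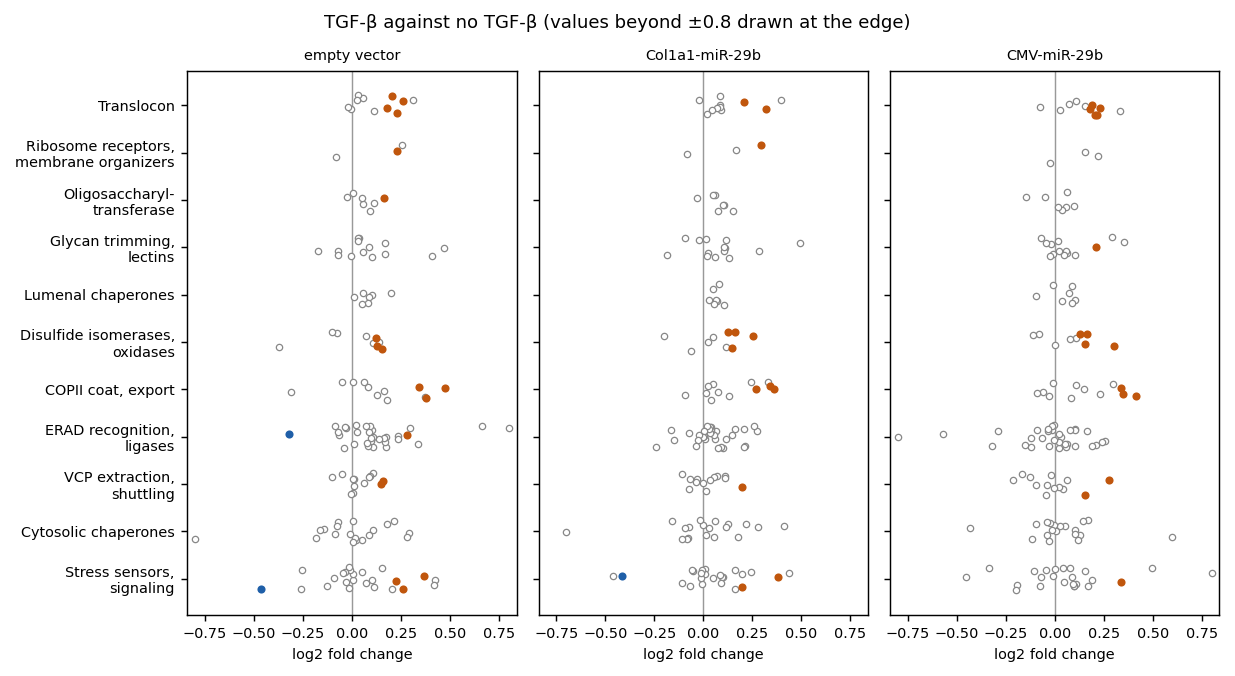
Log2 fold change of TGF-β against none for the 151 tested members, by role, in each vector. Filled points are members with an adjusted p under 0.05 (orange higher, blue lower) and open points the others. Filled points lie at the translocon, the disulfide isomerases, the COPII coat, the stress sensors and the genes of VCP extraction and shuttling in each vector. The 19 cytosolic chaperones are open throughout.

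The same treatment was given to cells with either miR-29b vector, each set against its own untreated libraries. In Col1a1-miR-29b cells 14 members passed (9.27%; background 4.32% of all genes). Of these, 13 rose (8.61%; background 3% higher) and Casp12 fell (0.662%; background 1.32% lower), and the members' median was 0.05 against -0.01 for all genes. In CMV-miR-29b cells 16 members passed (10.6%; background 4.95% of all genes). All 16 rose (background 3.08% higher) and none fell by edgeR (background 1.87% lower), with medians of 0.04 and 0.00. DESeq2 called 17 higher and 4 lower in CMV-miR-29b cells (13.7% together; 6.73% of all genes), and 39 members there had an unadjusted p under 0.05 (25.8%; 15.6% of all genes). These 3 comparisons share no library. The members that rose in all 3 were P4hb, Sec23a, Sec24d, Sec31a, Sec61a1, Sec61b, Txndc5, Ubqln2 and Xbp1. They are 9 of the 18, 13 and 16 that rose. How many of all genes rose in all 3 was not counted, so this overlap is not read as particular to the members.

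Sec31a in Col1a1-miR-29b cells had 169, 159 and 166 CPM without TGF-β and 209, 211 and 206 CPM with it (0.34 ± 0.04, adjusted p = 6.21e-05). In CMV-miR-29b cells it had 183, 174 and 170 CPM against 220, 229 and 223 CPM (0.35 ± 0.04, adjusted p = 3.99e-05). The treated libraries were above the untreated ones in both. Sec23a rose from 93.5, 99.1 and 95.1 CPM to 129, 133 and 122 CPM in CMV-miR-29b cells (0.42 ± 0.05, adjusted p = 7.37e-05) and by 0.27 ± 0.05 in Col1a1-miR-29b cells. Txndc5, a disulfide isomerase of fibroblasts, rose by 0.30 ± 0.04 in CMV-miR-29b cells (adjusted p = 0.00023) and by 0.25 ± 0.04 in Col1a1-miR-29b cells (adjusted p = 0.00139). It moved by 0.15 ± 0.04 in empty vector cells.

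Some genes passed in a single vector. Lman1, the cargo receptor ERGIC-53, and Ssr1 and Ssr3 of the translocon-associated complex rose in CMV-miR-29b cells, by 0.21, 0.20 and 0.18 on the log2 scale. Ckap4, which shapes rough ER sheets, rose in Col1a1-miR-29b cells by 0.29 ± 0.08, and Selenos, Capn2, Plaa, Rrbp1, Sec63, Stt3a and Fbxo2 passed in empty vector cells alone. This does not show that the responses differed. In the test of the difference itself, each miR-29b vector's response minus that of empty vector cells, 0 members passed by edgeR (background 0% in both differences) and 0 by DESeq2, which called 0.115% and 0.0819% of all genes. At an unadjusted p under 0.05 there were 3 and 10 members, or 1.99% and 6.62%, beside 4.54% and 5.34% of all genes. The difference was 0.01 ± 0.10 for Xbp1 and -0.13 ± 0.06 for Sec31a with Col1a1-miR-29b (adjusted p = 0.9999 for both), and -0.03 ± 0.10 and -0.12 ± 0.06 with CMV-miR-29b. In Col1a1-miR-29b cells the 14 calls became 9 without the unlettered untreated library, without TGF-β replicate d or without the unlettered TGF-β library. In CMV-miR-29b cells leaving out any library gave 11 to 13.

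Genes that work beside the pathway were taken from lists of known targets. The lists were chosen with earlier results of these data known, so their counts here and below are descriptive only. Of 22 ATF6 and XBP1 targets outside the pathway list, 6 rose and 0 fell with TGF-β in each vector (backgrounds of 3.88%, 3% and 3.08% higher). Their median log2 fold changes were 0.12, 0.12 and 0.13, beside 0.00, -0.01 and 0.00 for all genes. Pdia5, a disulfide isomerase, rose by 0.53, 0.49 and 0.37 in empty vector, Col1a1-miR-29b and CMV-miR-29b cells, and Fkbp14, a prolyl isomerase that folds procollagen, by 0.33, 0.34 and 0.35. Kdelr3, which returns chaperones to the ER, and Arfgap3 also rose in each. Of 21 tested PERK and ATF4 targets, Ddit4 rose in empty vector cells and Psat1 and Phgdh, enzymes of serine synthesis, fell in CMV-miR-29b cells. Marker sums moved with TGF-β as well, and the fibroblast sum includes collagen genes, which the paper reports as elevated by TGF-β. In empty vector cells the fibroblast sum was at 4188 to 4612 CPM without TGF-β and 6754 to 7732 CPM with it, and the endothelial sum at 1.37 to 1.97 CPM and 3.27 to 3.83 CPM. The epithelial sum reached 3.27 CPM with TGF-β, and the part of these markers in the results was not tested.

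**Figure D3:**
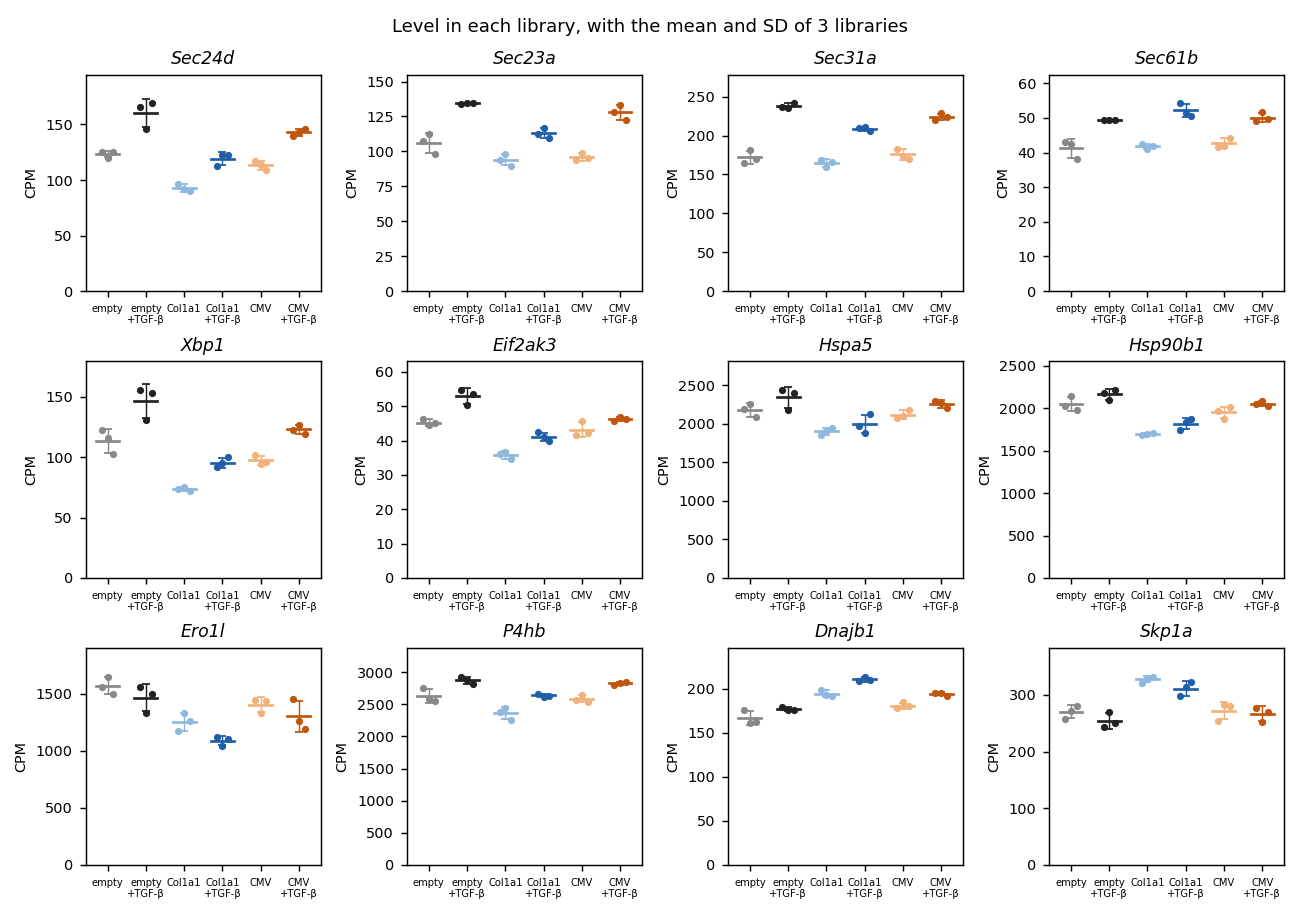
CPM of 12 members in each library of the 6 groups (points), with the mean (bar) and SD (whisker) of 3 libraries, on axes that start at 0. Sec31a is at 236 to 242 CPM in empty vector cells with TGF-β and at 164 to 181 without, and Xbp1 is lowest in untreated Col1a1-miR-29b cells, at 71.7 to 75.0 CPM.

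The Col1a1-miR-29b vector was then compared with the empty vector, to see how its cells stood at each treatment. Without TGF-β, those lower with Col1a1-miR-29b included 6 of 24 stress sensors and signaling genes, 3 of 7 lumenal chaperones and 4 of 9 disulfide isomerases and oxidases, and 4 of 19 cytosolic chaperones were higher. There 28 members passed (18.5%; background 6.27% of all genes), of which 21 fell (13.9%; background 3.7% lower) and 7 rose (4.64%; background 2.57% higher), with medians of -0.03 for members and 0.02 for all genes. With TGF-β, 46 passed (30.5%; background 12.9% of all genes), of which 35 fell (23.2%; background 7.63% lower) and 11 rose (7.28%; background 5.31% higher), with medians of -0.05 and 0.02. The comparisons without and with TGF-β share no library. Lower in both were 20 members, which are 20 of the 21 and 20 of the 35. Higher in both were 7 of the 7 and 7 of the 11. The share of all genes called in both settings was not computed, so this overlap is not read as particular to the members.

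Among the sensors and factors, 6 of 24 fell without TGF-β and 6 fell and 1 rose with it. Xbp1 had 73.5, 75.0 and 71.7 CPM with Col1a1-miR-29b against 122, 116 and 103 CPM with empty vector (-0.63 ± 0.07, adjusted p = 0.000292). With TGF-β it had 91.6, 94.9 and 99.8 CPM against 156, 131 and 153 CPM (-0.62 ± 0.07, adjusted p = 0.000222). In both settings every Col1a1-miR-29b library was below every empty vector library. Eif2ak3 had 36.2, 36.7 and 34.5 CPM against 46.2, 44.4 and 45.0 CPM without TGF-β (-0.34 ± 0.05, adjusted p = 0.00289) and changed by -0.36 ± 0.05 with it. Mbtps1, the protease that cuts ATF6, fell by 0.20 without and by 0.18 with TGF-β, and Nfe2l2, the antioxidant factor NRF2, fell by 0.29 and 0.22. Atf6 fell by 0.15 without TGF-β and was at -0.12 ± 0.04 with it (adjusted p = 0.0545). Ern1 and Ddit3 did not pass in either setting. Mbtps2, the second ATF6 protease, fell with TGF-β by 0.61 ± 0.18, although its libraries were spread widely, at 52.0, 34.4 and 47.9 CPM with empty vector and 24.1, 36.0 and 27.9 CPM with Col1a1-miR-29b, so that the groups overlapped. Atf4, the factor translated upon PERK signaling, was spread more widely still, at 213, 213 and 522 CPM with Col1a1-miR-29b against 619, 617 and 557 CPM without TGF-β (-0.92 ± 0.43, adjusted p = 0.232).

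Of the 7 lumenal chaperones, 3 fell without TGF-β and 4 with it. Hspa5 had 1850, 1911 and 1944 CPM against 2198, 2260 and 2087 CPM without TGF-β (-0.20 ± 0.05, adjusted p = 0.0277) and 1977, 1887 and 2124 CPM against 2444, 2183 and 2404 CPM with it (-0.23 ± 0.05, adjusted p = 0.00633). Hsp90b1, the lumenal HSP90 known as GRP94, had 1678, 1689 and 1702 CPM against 2023, 2137 and 1981 CPM without TGF-β (-0.28 ± 0.04, adjusted p = 0.00143) and changed by -0.25 ± 0.04 with it. The groups did not overlap for either gene. Sil1, which releases nucleotide from BiP, fell by 0.44 and 0.38, and the BiP partner Dnajc1 fell with TGF-β by 0.35. Hyou1 did not pass, with 270, 280 and 261 CPM against 305, 293 and 297 CPM without TGF-β.

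Of the 9 disulfide isomerases and oxidases, 4 fell in each setting. Ero1l, the oxidase that recharges these enzymes, had 1168, 1327 and 1255 CPM against 1561, 1649 and 1499 CPM without TGF-β (-0.33 ± 0.07, adjusted p = 0.0181). With TGF-β it had 1121, 1041 and 1101 CPM against 1558, 1332 and 1500 CPM (-0.43 ± 0.07, adjusted p = 0.00209). Pdia4 fell by 0.19 and 0.19, Pdia6 by 0.17 and 0.19, and P4hb by 0.15 and 0.12, while Txndc5 rose with TGF-β by 0.13 ± 0.04 (adjusted p = 0.0496). Calr, a lectin of the same compartment, did not pass, at 2228, 2444 and 2380 CPM against 2276, 2270 and 2284 CPM without TGF-β, and Canx, its membrane counterpart, fell by 0.12 and 0.13.

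For export, Sec24d was the 1 of 12 COPII genes that fell without TGF-β, from 125, 120 and 126 CPM to 96.5, 91.7 and 90.2 CPM (-0.41 ± 0.05, adjusted p = 0.00143). With TGF-β it had 113, 123 and 123 CPM against 166, 146 and 170 CPM (-0.43 ± 0.05, adjusted p = 0.000449). Sec23a, Sec24b, Sec31a and Sec23b also fell there, by 0.25, 0.21, 0.19 and 0.11. Sec61a1 and Stt3a fell in both settings, and Sec63, Tram1 and Stt3b fell with TGF-β. Among the ERAD genes, the ubiquitin-conjugating enzyme Ube2g1 fell by 0.28 and 0.30 and the ligase March6 by 0.18 and 0.17. Herpud1, an ERAD scaffold, had 164, 139 and 155 CPM with empty vector and TGF-β against 109, 116 and 95.8 CPM (-0.51 ± 0.12, adjusted p = 0.0128), and -0.39 ± 0.12 without TGF-β (adjusted p = 0.0701).

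Of 19 tested cytosolic chaperones, 4 rose, 1 fell and 14 did not pass without TGF-β, and 5 rose, 1 fell and 13 did not pass with it. Dnajb1, the HSP40 co-chaperone induced by heat shock, had 199, 194 and 191 CPM against 176, 161 and 163 CPM without TGF-β (0.22 ± 0.04, adjusted p = 0.00352) and 209, 214 and 210 CPM against 179, 176 and 176 CPM with it (0.25 ± 0.04, adjusted p = 0.000698). Hsph1, an HSP110 nucleotide exchange factor, had 346, 313 and 335 CPM against 249, 249 and 284 CPM without TGF-β (0.35 ± 0.07, adjusted p = 0.00816). Neither gene overlapped between the groups. Dnaja1 rose by 0.21 and 0.21, and Hspa2 with TGF-β by 0.41 ± 0.09. Hspa4l, another HSP110, fell by 0.25 and 0.33. Hspa1b, an inducible HSP70, rose by 0.50 ± 0.13 and 0.62 ± 0.13, but it has a near-identical copy in Hspa1a, at 0.193 to 2.44 CPM, and reads can be split between them, so both values are uncertain. Outside the chaperones, Skp1a, a subunit of SCF ligases, rose from 258, 272 and 281 CPM to 321, 330 and 333 CPM without TGF-β (0.28 ± 0.05, adjusted p = 0.00862) and by 0.29 ± 0.05 with it.

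**Figure D4:**
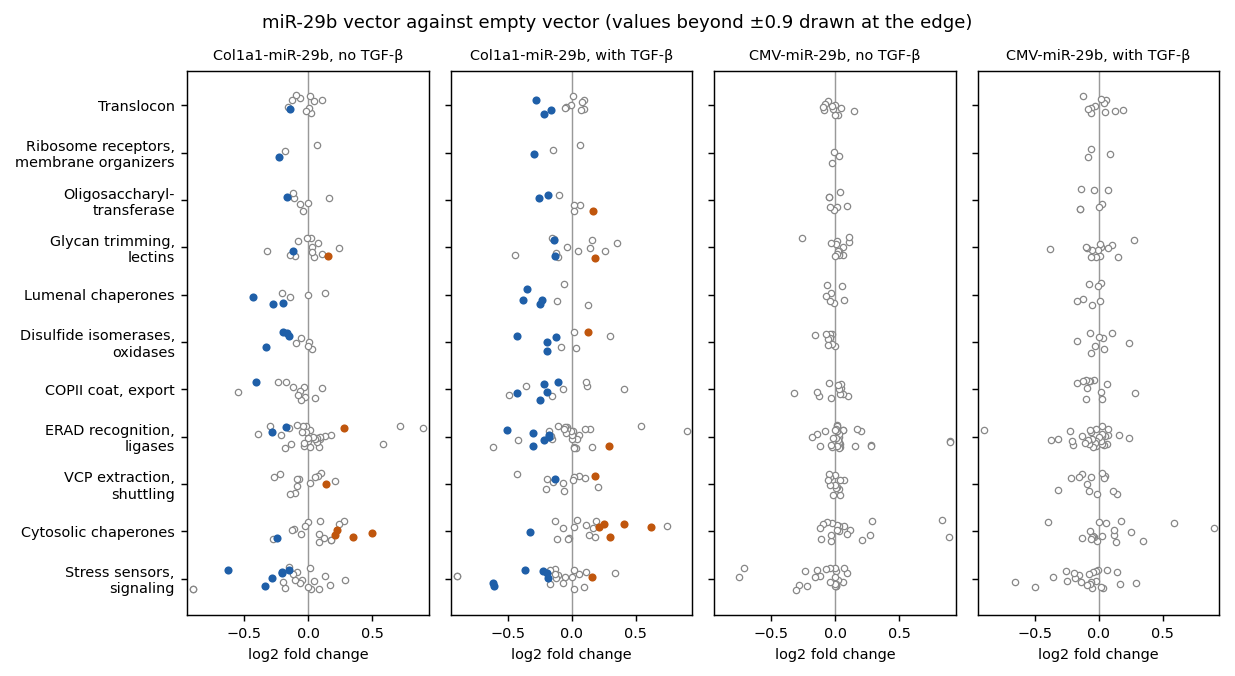
Log2 fold change of each miR-29b vector against empty vector, without and with TGF-β, for the 151 tested members by role. Filled points are members with an adjusted p under 0.05 (orange higher, blue lower). Col1a1-miR-29b cells have 7 higher and 21 lower members without TGF-β and 11 and 35 with it, and the CMV-miR-29b panels have no filled point.

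The number of members called with Col1a1-miR-29b depended on single libraries. Without TGF-β the 28 calls became 11 without empty vector replicate c, 13 without empty vector replicate d, 16 and 15 without Col1a1-miR-29b replicate c or d, and 15 without its unlettered library. With TGF-β the 46 became 29 and 28 without empty vector TGF-β replicate c or e, and 30 without Col1a1-miR-29b TGF-β replicate c or without its unlettered library. Without both unlettered libraries 10 and 32 members passed. Xbp1, Sec24d, Hsp90b1 and Dnajb1 passed under all 14 alternatives in both settings.

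Of the 21 tested PERK and ATF4 targets outside the pathway list, 8 fell and 0 rose with Col1a1-miR-29b without TGF-β, and 9 fell and 0 rose with it (backgrounds of 3.7% and 7.63% lower). Their medians were -0.18 and -0.19, beside 0.02 and 0.02 for all genes, and the list was chosen with earlier results of these data known. Chac1, a glutathione-degrading enzyme induced by ATF4, fell by 0.66 and 0.68, and Trib3, a pseudokinase, by 0.54 and 0.60. The amino acid transporter Slc7a1 fell by 0.45 and 0.51, and the tRNA ligases Cars, Gars and Aars fell in both. Of the 22 ATF6 and XBP1 targets, Arfgap3 fell without TGF-β and Arfgap3 and Spcs3 fell with it. Fibroblast marker sums were also lower with Col1a1-miR-29b, at 3255 to 3630 CPM against 4188 to 4612 CPM without TGF-β and 5164 to 5282 CPM against 6754 to 7732 CPM with it, and their part in these results was not tested. These sums include collagen genes, which the paper reports as reduced in Col1a1-miR-29b cells. In bulk libraries, fewer expressing cells and less RNA per cell cannot be told apart.

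Promoters of ER chaperones are known for the ER stress element (ERSE), read by ATF6 and XBP1. It is shown because several of the genes lower with Col1a1-miR-29b carry it. Calls among its holders are therefore no independent support, and its part in these results was not tested. The window ran from 250 bases before to 50 after the start site (RefSeq, GRCm38.p6), and 130 of the 160 members had one. The motif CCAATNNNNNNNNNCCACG, searched on both strands, was found in 8 members (6.15%) and in 37 of 27025 genes (0.137%). A second form, ERSE-II (ATTGG and CCACG with 1 base between, on both strands), was found in Dnajb11 and Herpud1 (1.54%; 0.044% of genes), and no member held both. Capitals mark the fixed bases, the letters follow the strand of the gene, and the distance is from the first base shown to the start site.
Hspa5, chr2:34772025-34772043, 65 bases before the start: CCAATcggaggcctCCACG
Hsp90b1, chr10:86705638-86705656, 212 bases before: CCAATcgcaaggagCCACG
Hsp90b1, chr10:86705533-86705551, 107 bases before, opposite strand: CGTGGtgaggcacgATTGG
Pdia6, chr12:17266491-17266509, 98 bases before: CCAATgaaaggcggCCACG
Canx, chr11:50325800-50325818, 145 bases before: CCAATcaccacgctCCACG
Calr, chr8:84847075-84847093, 162 bases before, opposite strand: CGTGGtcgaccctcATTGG
Herpud1, chr8:94386377-94386387, 52 bases before (ERSE-II): ATTGGgCCACG
The other holders were Derl3, Dnajc3 and Syvn1. Of the 10 holders, 0 passed with TGF-β in any vector. With Col1a1-miR-29b, 4 fell without TGF-β (Canx, Hsp90b1, Hspa5 and Pdia6) and 5 with it (these and Herpud1). The backgrounds over all tested genes were 3.7% and 7.63% lower, and calls among all genes holding a motif were not counted. Calr, Derl3, Dnajc3, Syvn1 and Dnajb11, which also hold a motif, were not among those that fell. The medians of the 10 holders were -0.06 and -0.16 against -0.03 and -0.04 for the other tested members. Those others include members without a promoter window, whose motif is not known.

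With CMV-miR-29b against empty vector no member passed by edgeR, either without TGF-β (background 0.00473% of genes called) or with it (background 0.00945%). At an unadjusted p under 0.05 there were 13 members without TGF-β (8.61%; 5.46% of all genes) and 32 with it (21.2%; 12% of all genes). DESeq2 called 1 (0.654%; 0.202% of all genes) and 8 (5.33%; 1.67% of all genes). The 1 was Hspa1b, at 17.2, 14.5 and 13.9 CPM against 7.97, 8.06 and 9.56 CPM (0.83 ± 0.13, adjusted p = 0.0648 by edgeR). The 8 were Hspa1a, Hspa1b, Hsph1, Dnajb1 and Ubqln2, which were higher, and Xbp1, Eif2ak3 and Ngly1, which were lower. Xbp1 had 102, 94.3 and 95.9 CPM without TGF-β (-0.22 ± 0.07, adjusted p = 0.765) and 123, 127 and 120 CPM with it (-0.25 ± 0.07, adjusted p = 0.188), below every empty vector library in both settings. The members' medians were 0.01 and -0.03, with 0.00 and 0.00 for all genes. Without empty vector TGF-β replicate d, edgeR called 2 members lower with TGF-β.

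The 2 miR-29b vectors were compared directly, which uses the same Col1a1-miR-29b libraries as above. Without TGF-β, 8 members passed (5.30%; background 1.81% of all genes). Of these, 7 were higher with CMV-miR-29b (4.64%; background 1% higher) and Skp1a was lower (0.662%; background 0.803% lower). The higher ones were Xbp1 (0.41 ± 0.07, adjusted p = 0.0106), Sec24d (0.29 ± 0.05), Eif2ak3 (0.27 ± 0.05), Hsp90b1 (0.21 ± 0.04), Mbtps1 (0.20 ± 0.04), March6 (0.18 ± 0.04) and Pdia4 (0.14 ± 0.03). With TGF-β, 7 members passed (4.64%; background 1.93% of all genes). Xbp1 (0.37 ± 0.07, adjusted p = 0.0187), Sec24d, Hsp90b1 and the glucosidase subunit Ganab were higher (2.65%; background 1.02% higher), and Dad1, a small subunit of the oligosaccharyltransferase, the cargo lectin Lman2 and Skp1a were lower (1.99%; background 0.912% lower). Dad1 had 44.0, 45.1 and 43.7 CPM with Col1a1-miR-29b and 35.7, 35.3 and 36.0 CPM with CMV-miR-29b (-0.31 ± 0.05, adjusted p = 0.00596). The heat shock genes did not pass in either direction, and Hspa1b was at 0.33 ± 0.13 without TGF-β (adjusted p = 0.198). Of the 21 PERK and ATF4 targets, 8 were higher with CMV-miR-29b without TGF-β and 2 with it (backgrounds of 1% and 1.02% higher).

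These counts also depended on single libraries. Without TGF-β the 8 became 5, 3 and 4 when Col1a1-miR-29b replicate c, d or the unlettered library was left out, and 1 without CMV-miR-29b replicate c. With TGF-β the 7 became 1 or 2 without any one of the 6 libraries. DESeq2 called 22 and 24 members (14.8% and 16.2%) and 7.69% and 7.78% of all genes.

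The 3 members with an 8-base miR-29b match did not pass in any vector comparison. Without TGF-β, Bak1, a pro-apoptotic BCL2 family member, had 152, 147 and 130 CPM with CMV-miR-29b against 168, 165 and 170 CPM with empty vector. These groups did not overlap (-0.23 ± 0.07, adjusted p = 0.765), but Col1a1-miR-29b cells had 168, 174 and 165 CPM. The TGF-β response of Bak1 with CMV-miR-29b minus that with empty vector was 0.09 ± 0.10, so its difference from empty vector was smaller with TGF-β. Man1a2, a Golgi mannosidase, was at 0.01 ± 0.07 with CMV-miR-29b and 0.02 ± 0.07 with Col1a1-miR-29b without TGF-β, and at -0.06 ± 0.07 and -0.15 ± 0.07 with it. Erp29, a lumenal chaperone of the isomerase family, had 1 library far below the others, empty vector TGF-β replicate c at 52.1 CPM, where the other 17 were at 139 to 173 CPM. Over the 18 tested members with a 7-base match, the median log2 fold change against empty vector was -0.09 and -0.09 with Col1a1-miR-29b without and with TGF-β, where the 133 others had -0.03 and -0.05. With CMV-miR-29b it was -0.02 and -0.05, against 0.01 and -0.02. Over all 2259 tested genes with that match, the medians were -0.04 and -0.05 with Col1a1-miR-29b and -0.03 and -0.05 with CMV-miR-29b, beside -0.01 and 0.00 and then 0.00 and -0.01 for the 12118 genes without it.

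**Figure D5:**
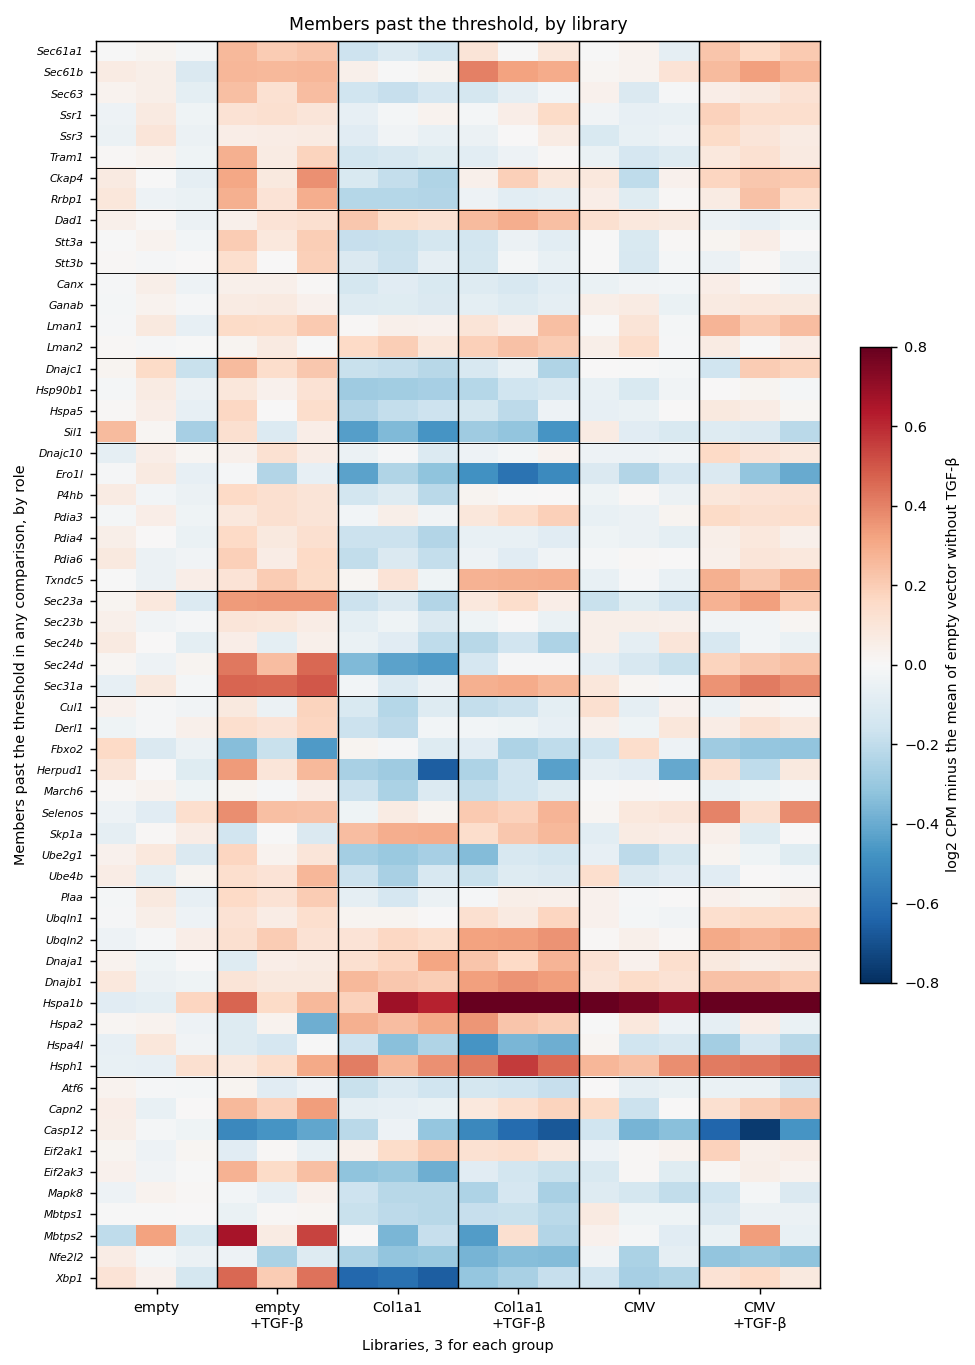
Log2 CPM of the 59 members past the threshold in any comparison, minus the mean of empty vector cells without TGF-β, in all 18 libraries (columns, 3 for each group, in the order c, d and e or unlettered), grouped by role. Red is higher and blue lower. The Xbp1 row is blue in all 6 Col1a1-miR-29b libraries, and Hspa1b is red in every library with a miR-29b vector.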

How the data were processed

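The authors trimmed poly(A) RNA-seq reads with cutadapt, mapped them with HISAT2 (the labels name mm9, the paper a later Ensembl mouse genome) and assembled them with StringTie. They deposited whole-number counts per gene and FPKM values, with 0.0001 in place of 0. The tool that turned assemblies into counts is not given in the sources used here, and 33.8% to 36.7% of counts from 1 to 40 in a library are multiples of 4. Columns were matched to samples by name, and 2 FPKM columns without a matching title were not used.

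Counts of all 18 libraries were fitted in edgeR 4.0.16 (R 4.3.3) with filterByExpr (minimum count 10), TMM normalization and a mean for each group. Quasi-likelihood F tests were adjusted by Benjamini-Hochberg over 21161 genes, and adjusted p under 0.05 was the threshold. CPM were TMM-scaled, and standard errors came from the F statistic. Alternatives were DESeq2 1.42.0, its size factors, scaling by total counts, no filter on low counts, a replicate block, leaving out libraries, offsets for length and GC content and limma 3.58.1 on log2(FPKM + 1) for named genes. Scripts were tested on simulated data. Seed matches were sought in GENCODE M21 3′ UTRs (GRCm38). Coordinates of 142 of the 160 members are identical in that annotation.

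Members, roles and lists were chosen with earlier results of these data known. Named genes were 33 well-known genes of the pathway, the 5 with the highest FPKM and the largest changes each way past the threshold. Those were the 12 largest for TGF-β and the 8 largest for other comparisons. Members with an 8-base match were named too, but the counts of values across alternatives leave them out. Sec13, Sil1, Hspa2 and other single genes given to complete a role, and the members with wide spread, were added after their values were seen. The authors' comparison columns were not used.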

Additional observations from a re-analysis of the deposited data

How the results depend on the processing

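No call of a named gene reversed its direction. Values without a call were not checked for a change of sign, and some, such as those of Atf4, differed in sign between alternatives. Over the named genes, 3570 values kept their side of the threshold, 479 lost and 25 gained it, and 140 values without a call moved by over 1 SE. Only values of genes called in the main fit could lose it. Many of the 3570 belong to genes without a call there, so these counts do not give the share of calls that was kept. For TGF-β against none, empty vector cells' 20 calls became 12 with scaling by total counts (10 higher, 2 lower), 12 with no filter on low counts and 13 without both unlettered libraries, and 7 to 20 when single libraries were left out. In Col1a1-miR-29b cells the 14 became 4 without both unlettered libraries (9 to 10 without single libraries), and in CMV-miR-29b cells the 16 became 11 to 13 without single libraries. Against empty vector, the 28 calls of Col1a1-miR-29b without TGF-β became 10 without both unlettered libraries (11 to 27 without single ones) and the 46 with TGF-β became 28 to 53. For CMV-miR-29b the 0 calls became 1 with the DESeq2 Wald test without TGF-β, and 8 with TGF-β (0 to 2 without single libraries). CMV-miR-29b against Col1a1-miR-29b gave 22 and 24 calls with DESeq2 and 1 and 1 without both unlettered libraries, in place of 8 and 7, and 1 to 9 and 1 to 2 without single libraries. In the last comparison with TGF-β, the 1 left without both unlettered libraries was lower, where 4 of the 7 had been higher. The causes were not tested, and fewer libraries enter where libraries are left out. Total-count scaling moved the members' median for Col1a1-miR-29b against empty vector from -0.03 to -0.01 without TGF-β and from -0.05 to -0.01 with it. The median of all genes moved there from 0.02 to 0.05 and from 0.02 to 0.06. Scaling by total counts moved the share of higher calls over all genes from 65.9% to 53.1% for TGF-β in empty vector cells, from 40.9% to 51.4% and from 41% to 52.6% for Col1a1-miR-29b without and with TGF-β, and from 55.5% to 43.5% for CMV-miR-29b against Col1a1-miR-29b without TGF-β.

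Replicate letters recur across groups, and deviations from the group mean correlated at 0.00204 over 36 same-letter pairs and at -0.000927 over 70 other pairs, so the letters were not taken to pair libraries. With the replicate block, over lettered libraries, the calls became 8, 3 and 11 for TGF-β in empty vector, Col1a1-miR-29b and CMV-miR-29b cells, 5 and 24 for Col1a1-miR-29b without and with TGF-β, and 0 and 0 for CMV-miR-29b against Col1a1-miR-29b. Length and GC offsets, added after seeing the data along with the fits without unlettered libraries, gave 15, 11, 13, 23 and 39 in that order, and 12 and 8.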

Other observations

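Most members varied little within a group. Of 143 members with a mean above 10 CPM, 135 kept the highest library of every group within 2-fold of the lowest. The other 8 were Atf4, Dnajc5, Erp29, Map2k7, Ppp1r15a, Sar1a, Ube2d2a and Ube2g2.

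Atf4, the transcription factor translated upon PERK signaling, was at 213 to 272 CPM in 9 libraries and at 522 to 632 CPM in the other 9, with no library between. The lower level was seen in 0 of 3 libraries with empty vector, 1 with empty vector and TGF-β, 2 with Col1a1-miR-29b, 3 with Col1a1-miR-29b and TGF-β, 1 with CMV-miR-29b and 2 with CMV-miR-29b and TGF-β, and no comparison of Atf4 passed the threshold. Its FPKM followed the same split, for instance 99.9 and 223 in empty vector TGF-β replicates c and d. Sar1a, the GTPase that starts COPII assembly, was at 55.1 to 94.5 CPM in 14 libraries and at 179 to 193 CPM in 4. Ube2g2, a ubiquitin-conjugating enzyme of ERAD, was at 26.7 to 37.0 CPM in 9 libraries and at 51.0 to 84.5 CPM in 9. Ppp1r15a, the phosphatase subunit GADD34, was at 136 and 160 CPM in 2 libraries and at 238 to 342 CPM in 16. These levels differed between libraries of 1 group, and how counts were assigned to transcripts at these genes was not tested.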
